A study of Homo sapiens with 3 samples.

Results

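Of the 4889 peaks recovered with probes against KCNQ1OT1, a long noncoding RNA, from the cell line HEK293T, 4454 lay on chromosomes 1 to 22, and 671 of these lay deep inside a protein-coding gene of moderate length. A peak was counted here when its midpoint fell inside a RefSeq protein-coding gene, when every such gene was shorter than 200 kb, and when the midpoint was more than 5 kb from both ends of every protein-coding gene. These positions alone chose the peaks from the list, and no measured value entered the rule. The rule was set with earlier results of these data known. The 671 peaks made up 15.1% of the autosomal list (exact binomial 95% interval 14.0 to 16.1). They lay in 620 genes of 10.1 to 199 kb.

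HEK293T is an immortalised line from human embryonic kidney that is widely used for transfection. The method, ChIRP-seq (chromatin isolation by RNA purification), fishes an RNA out of crosslinked, sonicated chromatin with biotinylated oligonucleotides complementary to it, and sequences the DNA that comes along. The 3 groups were a pulldown with the odd probes, a pulldown with the even probes and an input without probes, with 1 library each. All came from HEK293T cells with no treatment named in the labels, crosslinked for 30 min in 3% formaldehyde and sonicated to fragments mostly under 500 bp. Each peak has the authors' fold enrichment, a linear ratio over the background that the peak caller took, and the authors' −log10 p; both come from a single merged list, so no value exists per library. All peak names are marked Even, the labels do not say how the odd and input libraries entered the list, and the sequencing depth is unknown. With no replicate list, the spread between replicates is unknown and no difference below was tested. Intervals cover counting error only and take peaks as independent sites.

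KCNQ1OT1 is a nuclear RNA that starts within KCNQ1, a potassium channel gene of an imprinted cluster on chromosome 11, and runs against its direction. It acts on chromatin and is known for silencing neighbouring genes on the paternal chromosome together with histone and DNA methyltransferases. The interior of a protein-coding gene is mostly intron, crossed by RNA polymerase II when the gene is active, and can hold further start sites of shorter isoforms, antisense RNAs and lncRNAs. Binding of the RNA at these sites was not tested by other means.

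Start sites inside these genes are the places where the DNA under a peak can be read from the sequences at hand, the RefSeq promoter windows (GRCh38.p14), and they are shown first for that reason. Any base of 7 of the 645 peaks on chromosomes with listed starts touched a window of 250 bases before to 50 bases after a start, a share of 1.09% (exact binomial 95% interval 0.437 to 2.22). Of these 7 peaks, 6 had a fold of at least 20, as did 208 of the 645. By summit alone, 3 of the 645 (0.465%) lay in such a window, and the windows take up 0.204% of the length that meets the rule on all autosomes but 8. Any overlap was found for 1 of 501 peaks deep inside longer genes (0.200%), 20 of 386 near gene ends (5.18%) and 8 of 2730 outside (0.293%). A fold of 20 was reached by 0 of the 1, 13 of the 20 and 2 of the 8. The classes are defined by distance to gene ends, so start windows need not take up the same share of their length. That share is not given here for the other classes, so the overlaps have no common reference. The 250 bases upstream of 5 starts, 4 with a high-fold and 1 with a low-fold peak over all or part of these bases, are given 5′ to 3′, with the bases covered by the peak in capitals.
CUL2 internal start A, chr10:35090615-35090864, minus strand: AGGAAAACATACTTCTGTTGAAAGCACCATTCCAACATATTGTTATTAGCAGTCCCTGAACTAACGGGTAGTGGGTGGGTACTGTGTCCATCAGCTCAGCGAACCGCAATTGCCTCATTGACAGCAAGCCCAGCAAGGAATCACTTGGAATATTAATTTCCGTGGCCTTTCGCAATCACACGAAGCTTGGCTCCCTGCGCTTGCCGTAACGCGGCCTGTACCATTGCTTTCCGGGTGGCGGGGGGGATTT
PHC2-AS1 start, chr1:33350102-33350351, plus strand: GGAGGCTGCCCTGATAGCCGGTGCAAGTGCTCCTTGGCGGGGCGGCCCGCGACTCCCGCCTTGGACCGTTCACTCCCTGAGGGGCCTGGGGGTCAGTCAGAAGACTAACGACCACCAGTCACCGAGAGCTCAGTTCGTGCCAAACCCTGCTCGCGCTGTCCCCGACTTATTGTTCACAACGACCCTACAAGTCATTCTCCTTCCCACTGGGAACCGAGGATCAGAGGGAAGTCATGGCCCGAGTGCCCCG
MAST3 internal start, chr19:18117737-18117986, plus strand: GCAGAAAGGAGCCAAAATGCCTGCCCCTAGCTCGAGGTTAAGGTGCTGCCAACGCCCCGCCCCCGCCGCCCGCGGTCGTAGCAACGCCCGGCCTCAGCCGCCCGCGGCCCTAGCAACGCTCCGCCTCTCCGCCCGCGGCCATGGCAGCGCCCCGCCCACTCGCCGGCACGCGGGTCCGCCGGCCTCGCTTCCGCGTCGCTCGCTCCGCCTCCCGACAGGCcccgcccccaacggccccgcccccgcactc
CNKSR3 internal start, chr6:154478492-154478741, minus strand: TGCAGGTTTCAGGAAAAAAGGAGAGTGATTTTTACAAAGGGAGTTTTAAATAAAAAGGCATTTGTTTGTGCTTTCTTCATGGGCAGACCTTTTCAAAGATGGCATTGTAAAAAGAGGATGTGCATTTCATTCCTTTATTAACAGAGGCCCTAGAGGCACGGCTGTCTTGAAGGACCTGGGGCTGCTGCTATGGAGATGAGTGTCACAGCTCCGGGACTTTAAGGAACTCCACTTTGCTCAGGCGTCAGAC
GALNT9-AS1 start, chr12:132275141-132275390, plus strand: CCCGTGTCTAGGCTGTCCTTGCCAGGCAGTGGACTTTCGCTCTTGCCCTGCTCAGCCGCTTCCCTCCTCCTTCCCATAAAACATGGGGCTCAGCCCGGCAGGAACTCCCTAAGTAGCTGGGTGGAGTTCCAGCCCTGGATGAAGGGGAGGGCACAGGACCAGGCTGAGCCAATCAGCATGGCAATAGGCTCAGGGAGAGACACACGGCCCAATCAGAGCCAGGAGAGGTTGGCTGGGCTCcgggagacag
Start A of CUL2 lay 16 bases before the summit of a peak with a fold of 92.5, in transcription order, and a further start, B, lay 257 bases after it. CUL2 encodes the cullin scaffold of the VHL ubiquitin ligase, and these starts lie 36.4 and 36.7 kb inside the gene. A peak with a fold of 62.5 covered 220 of the 250 bases upstream of the start in MAST3, a microtubule-associated kinase gene, and ended before the start. The peak over the start of the antisense gene PHC2-AS1 had a fold of 64.5. The latter peak also covered 123 of the 250 bases upstream of an internal start of PHC2, which encodes a polycomb repressive complex subunit, but not that start itself. The peak in CNKSR3 had a fold of 49.9. An internal start of MIA3, a gene for cargo export from the endoplasmic reticulum, lay under a peak of fold 43.5, and a start of LOC105371687 inside PPFIA4 under one of 36.1. The peak at GALNT9-AS1, which covered 240 of the upstream bases and ended before the start, had a fold of 9.28.

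These upstream windows differed widely in base composition. Their GC share ran from 44.4% in CNKSR3, with 3 CpG, to 80.4% at the PHC2 start, with 36 CpG. The median over the 9 windows was 61.6% GC and 17 CpG, against 58.0% and 11 over 34943 listed starts. The GC box GGGCGG, on either strand, was found in 5 of the 9 windows (55.6%) against 42.5% of all. CCAAT was found in 1, that of GALNT9-AS1 (11.1% against 32.0%), and TATAAA in 1, that of MIA3 (11.1% against 10.8%). A run of 20 or more purines on either strand was found in 1, start B of CUL2 (11.1% against 5.42%). These letter matches describe the windows and mark no bound factor. The windows are only 9, those of PHC2 and PHC2-AS1 overlap, and no share was tested against the background.

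The 671 peaks fell into a large group of low fold and variable width and a smaller group of high fold and narrow width. The median fold was 9.24 (binomial 95% interval of the median 8.39 to 10.2), with quartiles at 6.13 and 26.3 and extremes of 1.34 and 293. On the log2 scale the counts had a first maximum of 146 peaks at folds from 5.66 to 8, a low point of 44 at 16 to 22.6 and a second maximum of 65 at 22.6 to 32. None of the 671 peaks had a −log10 p below 8, and the 91 with a fold below 5 had a median of 9.96. Sites of low fold are thus counted only where they passed the peak call. How far this shapes the first maximum and the fall below it was not tested. A fold of 20 or more, a split taken from earlier work on this list with its values known, was reached by 215 of the 671 (32.0%, exact binomial 95% interval 28.5 to 35.7). Over all autosomal peaks the share was 26.1%, and over the autosomal peaks outside this set it was 25%.

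Width differed between the fold classes, without a steady order. Peaks with folds from 10 to 20 had the lowest median, 522.5 bp, with quartiles at 451 and 1351. Peaks with a fold of at least 20 measured 583 bp at the median (quartiles 535 and 617), and 181 of the 215 measured 450 to 700 bp. Peaks with a fold below 10 measured 928.5 bp (575 and 1373), and 58 of those 356 (16.3%) lay in the same band. Among peaks with folds of 5 to 10, 127 of 265 were at least 1000 bp wide, against 4 of the 85 with a fold of 40 or more. The summit also sat closer to the middle of the high peaks, at a median of 59.5 bp from the midpoint, against 215 bp in those below 10. Fold, width and summit come from the same call of a peak and are not independent of each other.

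**Figure D1:**
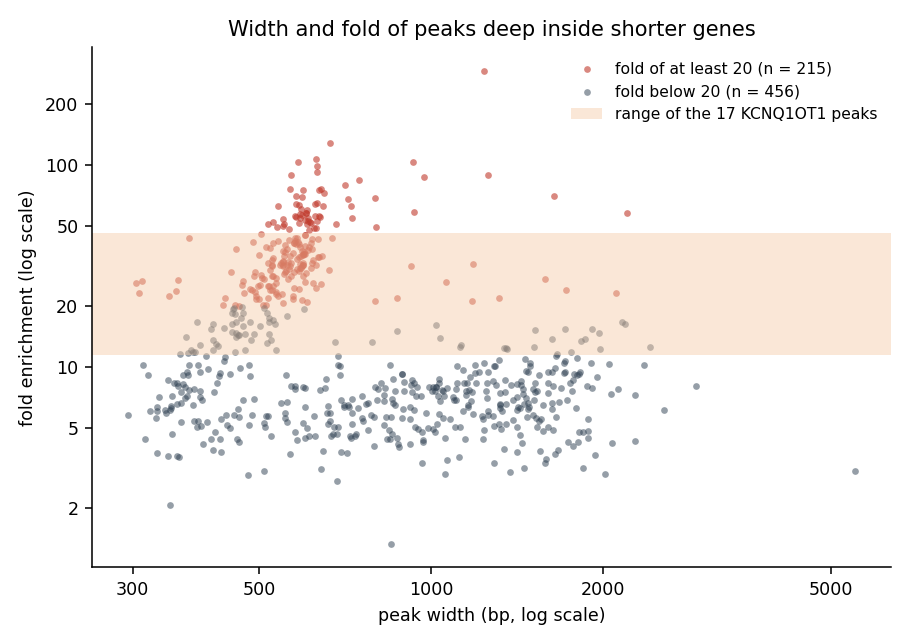
Peak width (bp, log scale) against the authors' fold enrichment (log scale) for the 671 peaks deep inside shorter genes, 1 point per peak, in red for a fold of at least 20 (n = 215) and dark for a fold below 20 (n = 456); the band spans the 17 peaks inside KCNQ1OT1, from 11.5 to 45.9. The red points crowd into widths of 450 to 700 bp, whereas the dark points spread from 295 to 5509 bp.

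The KCNQ1OT1 gene itself gives a scale for these folds. Its 17 peaks had folds of 11.5 to 45.9 with a median of 20.4 and a median width of 693 bp. Of the 671 peaks, 383 were below that range, 224 were within it and 64 were above it. The share above it was 9.54%, and that of all autosomal peaks was 7.59%.

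Other positions relative to genes held the same kinds of peak in other proportions. The 517 peaks deep inside genes of 200 kb or more had a median fold of 18.2 (95% interval 16.0 to 20.9), and their widths centred on 579 bp. The 396 peaks within 5 kb of a protein-coding gene end had a median fold of 11.3 (9.58 to 13.7). The 2870 peaks outside protein-coding genes and away from their ends had a median fold of 7.45 (7.22 to 7.67), with widths centred on 1082.5 bp. Peaks with a fold of at least 20 had nearly the same median width in all 4 classes, from 567 bp in longer genes to 583 bp in shorter ones.

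**Figure D2:**
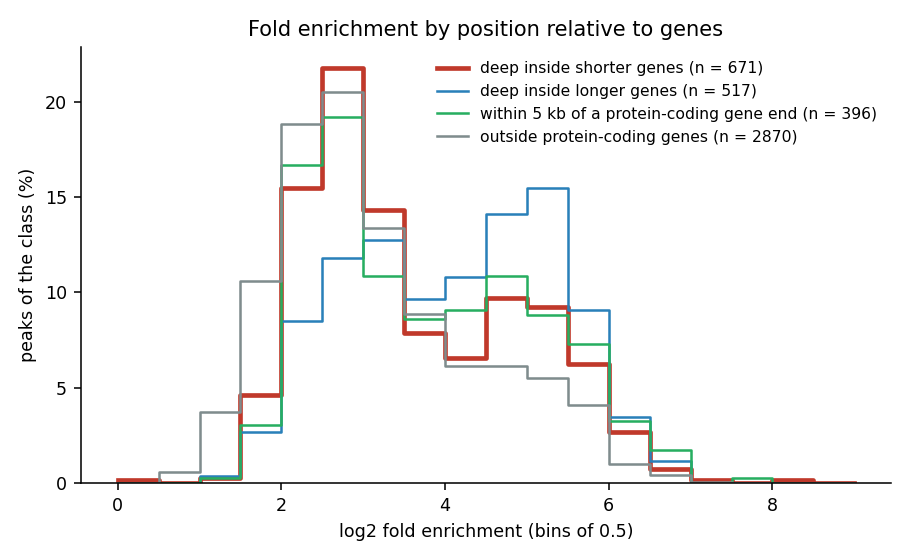
Percentage of the peaks of each positional class (y axis) in bins of 0.5 of log2 fold enrichment (x axis), drawn as steps, for autosomal peaks deep inside shorter genes (n = 671, thick line), deep inside longer genes (n = 517), within 5 kb of a protein-coding gene end (n = 396) and elsewhere (n = 2870). The shorter genes have their highest bin below a fold of 8 with 146 peaks and a second rise at 22.6 to 45.3.

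The density of high-fold peaks was similar across the classes that touch genes, and the density of low-fold peaks was not. Peaks with a fold of at least 20 numbered 0.433 per Mb of shorter-gene interior (exact Poisson 95% interval 0.377 to 0.495), 0.453 per Mb (0.398 to 0.513) in longer genes and 0.485 per Mb (0.409 to 0.572) near gene ends. Outside genes the value was 0.362 per Mb (0.333 to 0.393). Peaks below 20 numbered 0.918 per Mb (0.836 to 1.01) in shorter genes, against 0.499 (0.441 to 0.562) in longer genes, 0.868 (0.764 to 0.981) near ends and 1.5004 (1.440 to 1.563) outside. The lower median fold of shorter than of longer genes thus goes with more low-fold peaks per Mb, at intervals of the high-fold density that overlap.

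In all, shorter-gene interiors held 1.35 peaks per Mb over 496 Mb, 17.3% of the annotated autosomal span, so their share of peaks was 0.872 times their share of length (0.812 to 0.935). This ratio turned to 1.22 (1.14 to 1.31) once the gene-free intervals of at least 2 Mb and 5 Mb on either side of them were left out of peaks and length. With peaks within 10 kb of each other counted as 1 site, it was 0.962 (0.895 to 1.03). The densities per Mb of gene interior do not depend on what is counted elsewhere.

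By gene length, the density of low-fold peaks was highest in the shortest genes, without a steady order at the longer lengths. In genes of 25 to 50 kb the peaks below a fold of 20 came to 1.22 per Mb (0.993 to 1.48), and in genes of 100 to 150 kb such peaks came to 0.731 per Mb (0.594 to 0.891). At 150 to 200 kb the value was 0.863 per Mb (0.686 to 1.07), whose interval overlaps both. The high-fold peaks of these 3 lengths came to 0.471, 0.455 and 0.431 per Mb. In the shortest genes, of 10 to 25 kb, 5 of 39 peaks reached a fold of 20, and the density was 0.197 per Mb (0.0641 to 0.461). The median fold was 6.63 in these, 10.8 in genes of 100 to 150 kb and 10.2 in genes of 150 to 200 kb.

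**Figure D3:**
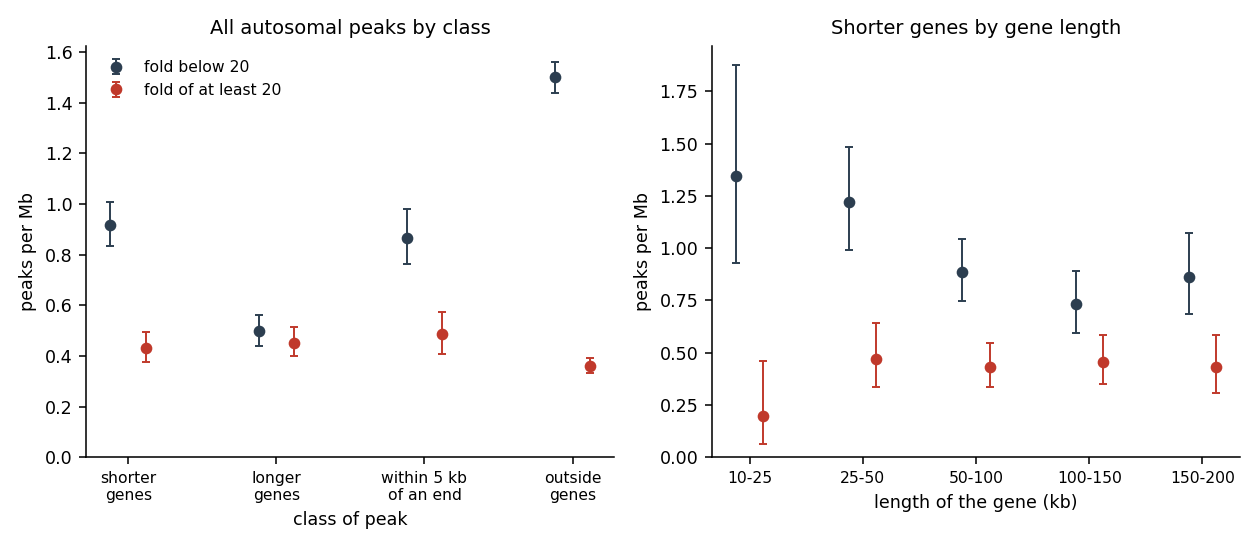
Autosomal peaks per Mb (y axis, from 0) by positional class (left) and, for shorter genes, by gene length in kb (right), for folds below 20 (dark) and of at least 20 (red); points are densities and bars are exact Poisson 95% intervals. High-fold densities lie between 0.362 and 0.485 in the classes, while low-fold densities run from 0.499 to 1.5004.

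The number of genes in the surroundings, chosen for display after the values were seen, gave a wide spread in density. Where the 500 kb on either side held 20 to 39 protein-coding genes, peaks below a fold of 20 came to 1.99 per Mb (1.65 to 2.38; 122 peaks). Where they held 5 to 9 genes, such peaks came to 0.604 per Mb (0.499 to 0.724; 117 peaks), and the intervals do not overlap. High-fold peaks came to 0.522 per Mb (0.357 to 0.737) and 0.428 per Mb (0.341 to 0.531) in the same surroundings, with intervals that do. The median fold was 16.7 with 0 to 4 genes around and 7.83 with 20 to 39, and the median width was 600 and 872.5 bp. In surroundings with 40 genes or more there were 14 peaks, 1 of them with a fold of at least 20.

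In longer genes with 10 to 19 genes around, low-fold peaks came to 0.844 per Mb (0.588 to 1.17), and in shorter genes to 1.00 per Mb (0.852 to 1.17). With 5 to 9 genes around, the values were 0.541 per Mb (0.431 to 0.671) in longer genes and 0.604 in shorter ones. With 0 to 4 genes around, they were 0.435 per Mb (0.368 to 0.511) in longer and 0.584 per Mb (0.421 to 0.789) in shorter genes. With 20 to 39, longer genes had 0.818 per Mb (0.169 to 2.39), from 3 peaks, and shorter genes 1.99 per Mb. Shorter genes were thus higher in each of these surroundings, with intervals that overlap. Over all surroundings the values were 0.918 per Mb in shorter and 0.499 per Mb in longer genes. Those intervals, narrower and with more peaks, did not overlap. The surroundings themselves differed, with 0 to 4 genes around 14.5% of the shorter-gene length and 63.4% of the longer-gene length. How far the difference over all surroundings follows from this was not tested. The high-fold density of longer genes was higher with more genes around, at 0.377 per Mb (0.315 to 0.448) with 0 to 4 genes and 0.699 per Mb (0.468 to 1.00) with 10 to 19. The shorter genes had 0.473 (0.327 to 0.660) and 0.401 (0.310 to 0.511) there. Whether gene number itself bears on either kind of peak was not tested.

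Along the direction of transcription the peaks were denser towards the 5′ end. Strand could be read from the promoter windows for 514 of the 620 genes, with 556 peaks. Of these, 310 (55.8%, exact binomial 95% interval 51.5 to 59.9) lay before the midpoint of the gene, where 50.2% of the length lay. From the first to the last 20% of gene length the density was 1.83, 1.46, 1.32, 1.13 and 1.10 per Mb. The interval of the first (1.501 to 2.210) lies above that of the last (0.846 to 1.40).

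On either side of the fold split alone, the density was again higher in the first than in the last 20% of the gene. Overlap of the intervals below does not show equal densities, and neither difference was tested. Low-fold peaks came to 1.24 per Mb (0.970 to 1.56) in the first 20% and 0.755 per Mb (0.549 to 1.01) in the last, and high-fold peaks to 0.593 (0.413 to 0.825) and 0.343 (0.210 to 0.530) per Mb, with intervals that overlap in both cases. The share reaching a fold of 20 stayed between 31.0% and 33.9%. Before the midpoint lay 54.2% of the peaks in genes of 10 to 50 kb, 58.3% in those of 50 to 100 kb and 54.8% in those of 100 to 200 kb; of these, the interval of 58.3% (50.6 to 65.7) alone stays above 50.3%, the share of length there. In longer genes the density was 1.09 per Mb (0.877 to 1.33) in the first 20% and 0.996 per Mb (0.797 to 1.23) in the last.

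**Figure D4:**
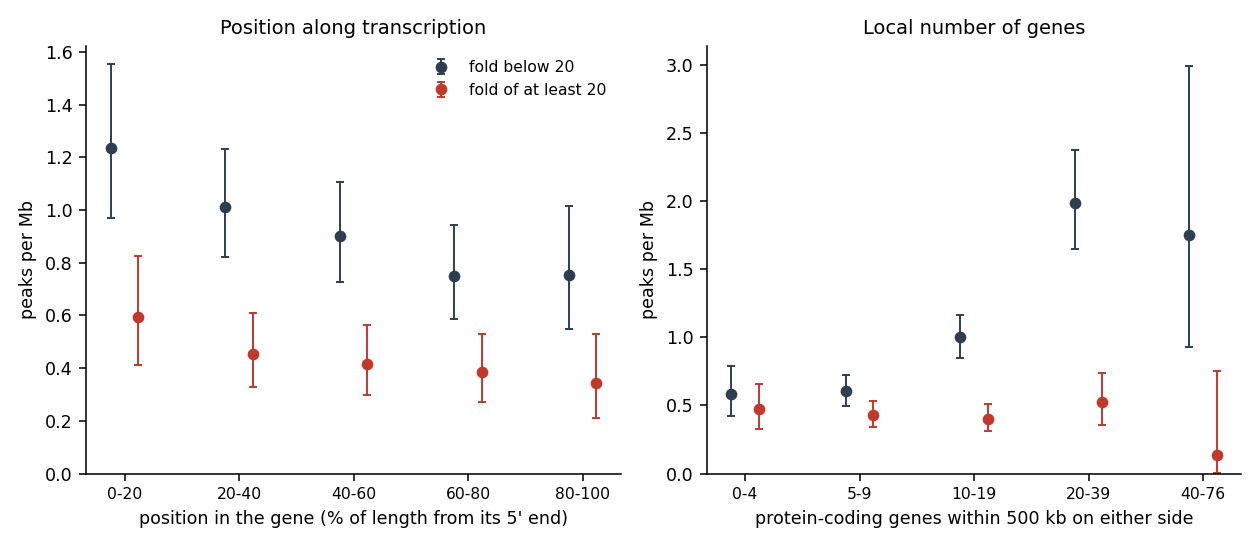
Peaks deep inside shorter genes per Mb (y axis, from 0) by position in the gene in % of its length from the 5′ end (left, 556 peaks with a known strand) and by the number of protein-coding genes within 500 kb on either side (right, 671 peaks), for folds below 20 (dark) and of at least 20 (red), with exact Poisson 95% intervals as bars. Low-fold densities run from 0.584 to 1.99 with local gene number, and high-fold densities from 0.401 to 0.522 up to 39 genes. The intervals of low-fold and high-fold peaks overlap at 0 to 4 and at 5 to 9 genes.

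Neighbouring peaks were uncommon, and overlap with lncRNA genes was close to their share of the length. Another autosomal peak within 10 kb was found for 31 of the 671 peaks (4.62%), whereas 18.2% of all autosomal peaks had one. It was found for 2.79% of the peaks with a fold of at least 20 and for 5.90% of those below 10. Of the 671, 42 lay inside a lncRNA gene as well (6.26%, exact binomial 95% interval 4.55 to 8.37), where 6.63% of the length lay. Of these 42 peaks, 18 had a fold of at least 20, as did 215 of the 671 (32.0%). By distance to the nearer gene end, the density was 1.42 per Mb at 5 to 10 kb, 1.61 at 10 to 20 kb and 1.12 at 40 to 100 kb.

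The highest folds were found in genes of varied function. Coordinates are those of GRCh38, and exons and introns were not told apart, since the gene table holds none. The peak in USP25, which encodes a deubiquitinating enzyme (chromosome 21, 15836475 to 15837711), had a fold of 293 and a −log10 p of 2846. It was followed by a peak of fold 129 in SFMBT1 (chromosome 3, 52939960 to 52940623), whose product has histone-binding MBT repeats. After USP25, the fold was below 130 in every peak of the set.

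HFM1, which encodes a DNA helicase of meiotic crossing over, had 2 peaks of nearly equal height. The one at 91345761 to 91346387 on chromosome 1 had a fold of 107 and the one at 91402073 to 91402657 a fold of 103, with 55.7 kb between them. No other gene among the 45 with several peaks had 2 folds above 100. A peak in SLFN12, a Schlafen family gene (chromosome 17, 35424914 to 35425840), had a fold of 104.

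The CUL2 peak described above (chromosome 10, 35090317 to 35090946) had 92.5. DYRK1A, a kinase gene on chromosome 21 (37472591 to 37473844), had 89.4, and PHF19 (chromosome 9, 120876092 to 120876658), a Polycomb-like subunit of PRC2, had 89.1. The glycosyltransferase gene GALNT9 (chromosome 12, 132254003 to 132254971) had 87.4, on a peak 20.7 kb from the one at GALNT9-AS1, midpoint to midpoint. By −log10 p, 8 of the same 10 peaks led the list; TMEM39B (fold 79.6) and the intraflagellar transport gene IFT56 (fold 75.7) took the other places.

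At the low end lay DUX4 (chromosome 4, 190180163 to 190181013), a homeobox gene of the D4Z4 repeat array, with a fold of 1.34 and a −log10 p of 9.43. ARHGEF18 had a fold of 2.09 and the hyaluronidase gene HYAL4 had 2.72. DUX4 is 1 of many near-identical copies, so reads there cannot be assigned to a single copy with certainty.

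The same holds for a group noticed after the values were seen, NOTCH2 and its human-specific NOTCH2NL copies on chromosome 1. NOTCH2, a receptor of Notch signalling, had a fold of 75.9 at 120008215 to 120008854. NOTCH2NLC had 57.3, NOTCH2NLA 54.8 and NOTCH2NLB 48.7, each with a single peak of 588 to 622 bp. The summits lay 61.2 kb from the 5′ end of NOTCH2, 61.1 kb from that of NOTCH2NLA and 61.8 kb from that of NOTCH2NLC. In NOTCH2NLB, which starts farther upstream, the distance was 93.7 kb, but its summit lay 18.5 kb from the 3′ end, where NOTCH2NLA had 19.0 kb and NOTCH2NLC 19.4 kb. The peaks thus sit at matching places of the copies and may not be independent sites. NOTCH2NLR, the other copy in the gene table, had no listed peak.

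Of 12170 genes with any interior that meets the rule, 620 (5.09%) held a peak. A single peak was found in 575, 2 peaks in 36 and 3 or more in 9. Among the 45 with several, all peaks reached a fold of 20 in 5 genes, none did in 24 and 16 genes were mixed. The 5 genes were HFM1, the immune receptor gene CD96 (64.6 and 20.3), PHC2 (33.9 and 64.5), the lipid phosphatase gene MTMR3 (52.2 and 41.8) and SOS2, an activator of RAS (40.3 and 39.4). The genes with a peak had a median length of 79.5 kb, against 36.9 kb for all genes with such interior. A longer gene has more interior and is likelier to hold a peak even at an even density. Per Mb of interior, genes of 25 to 50 kb held 1.69 peaks and genes of 150 to 200 kb 1.29. Among the 9 genes with 3 or more peaks, NFATC3, FRK, CECR2 and FAM193A held a peak with a fold of at least 20, and the others held none. Low folds are also the larger part of the whole set, where 215 of 671 peaks (32.0%) reached a fold of 20. The mix of folds in genes with several peaks was not tested against that share.

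TTC34, a tetratricopeptide repeat gene on chromosome 1, had 5 peaks with folds of 3.61, 6.20, 5.80, 3.07 and 8.61 over 97.0 kb, where its length would give 0.209 at the average density. MEI1, which acts in meiotic recombination, had 4 peaks at 5.62, 7.94, 6.17 and 9.14 over 66.3 kb. CCND3, encoding cyclin D3 of the cell cycle, had 5.43, 7.81 and 6.91. All peaks of these 3 genes are thus below a fold of 10. The lipid transfer gene PITPNM2 had 9.16, 8.06 and 5.34, and the kinase gene TAOK1 had 5.20, 6.53 and 6.89.

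Other genes with several peaks combined both kinds. NFATC3, a transcription factor gene of calcineurin signalling, had a narrow peak of fold 51.9 and 615 bp between peaks of 6.49 and 5.95, all within 15.0 kb. FRK, a tyrosine kinase gene, had 51.6 and 28.2 at 587 and 597 bp, with a peak of 3.51 and 1587 bp between them. CECR2, a chromatin remodelling gene, had 36.3 and 32.2 around one of 5.27 and 1351 bp, and FAM193A had 11.0, 5.93 and 22.5. In NFATC3, FRK and CECR2, peaks of high and low fold thus alternate inside a gene, with widths of 558 to 615 bp for the high ones.

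Gene lists drawn up with earlier results of these data known describe which pathways the genes belong to; each count is read against the 5.09% of all genes. Of 23 polycomb genes with interior length, 3 held a peak (13.0%), namely PHF19 (89.1), PHC2 (33.9 and 64.5) and the histone-binding subunit gene RBBP4 (5.93). Their 4 peaks compare with 1.53 at the average density, and 3 of the 4 had a fold of at least 20, against 32.0% of the 671. Those 3 peaks lie in PHF19 and PHC2 alone. With so few genes and peaks, no difference of the polycomb list from the whole set was tested. Of 25 genes for heterochromatin and DNA methylation, 2 did (8%), the HP1 gene CBX1 (7.09) and the DNA demethylation gene TET1 (4.27), 2 peaks against 1.89. Of 22 imprinted genes, SNRPN (7.61) alone did (4.55%), 1 peak against 1.59.

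The next 4 lists cover DNA repair, centromeres, the cell cycle and senescence with DNA sensing. Of 40 DNA repair genes, 4 held a peak (10.0%), the Fanconi anaemia gene FANCA (10.5), the kinase genes PRKDC (8.36) and CHEK2 (4.95) and BRCA1 (4.46), and the 4 peaks compare with 3.11 at the average density. Of 28 centromere and kinetochore genes, CENPQ (6.76) and CENPT (5.78) did, 2 peaks against 1.26. Of 34 cell cycle genes CCND3 alone did, with 3 peaks against 1.34. Of 16 senescence and DNA sensing genes the RNA sensor gene RIGI (11.4) and its adaptor gene MAVS (8.40) did (12.5%), 2 peaks against 0.733. None of these 11 peaks reached a fold of 20, which 32.0% of the 671 did. The peaks of each list are few, and no difference from the whole set was tested.

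Larger families were close to the average density or below it. Of 490 zinc finger genes, 14 held a peak (2.86%), with 17 peaks against 16.7 at the average density, led by ZNF831 (38.4), ZNF701 (10.5), ZFP3 (9.67) and ZNF782 (8.77). Only 1 of the 17 reached a fold of 20. Of 295 solute carrier genes, 16 did (5.42%), with 16 peaks against 17.4, 7 of them at a fold of 20 or more: SLC13A5, a citrate transporter gene, had 43.8, SLC3A1, a subunit of a cystine transporter, 43.1, the nucleoside transporter gene SLC29A3 32.9 and SLC26A5, which encodes prestin, 32.7. The median fold was 7.23 over the zinc finger peaks and 12.7 over the solute carrier peaks, and 32.0% of the 671 peaks reached a fold of 20; the difference was not tested.

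Smaller families gave few peaks. RNA-binding and helicase genes held 6 in 101 genes, against 4.57 at the average density. The highest were in DHX32 (56.3), DHX37 (31.1), the splicing factor gene SRSF11 (25.5) and HNRNPR (7.23). ADAM family genes held 3 peaks in 29 genes, against 2.86 at the average density, all at a fold of 20 or more, which 32.0% of the 671 reached: the sheddase gene ADAM17 had 40.8, ADAMTS18 had 28.2 and ADAMTS20 had 27.4. Motor protein genes held 4 in 76 genes, against 6.85, in KIF20B (43.7), DNAI7 (31.8), DYNC2I2 (9.23) and KIF24 (8.44). F-box and cullin genes held 3 in 57, against 3.57, in CUL2, FBXW4 (31.7) and FBXW10B (2.95).

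Genes of RAB and ARF traffic held 4 in 112, against 7.23 at the average density: TBC1D22B (9.36), RAB27A (7.27), RAB19 (6.12) and RAB11FIP3 (3.78). None of these 4 reached a fold of 20, which 32.0% of the 671 did. Ubiquitin peptidase genes held 2 in 51, against 4.05, in USP25 and USP13 (9.14). GPR and ADGR receptor genes held 2 in 59, against 3.47, in GPR107 (8.02) and ADGRA3 (7.15). Of 53 potassium channel genes KCNK1 (6.46) alone held a peak, 1 against 3.35. Of 47 histone lysine methyltransferase and demethylase genes SMYD4 (21.5) alone did, 1 against 3.84. The peaks of each of these families are few, and no difference from the whole set was tested.

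By chromosome, the density ran from 0.570 per Mb on chromosome 13 (7 peaks) to 3.01 per Mb on chromosome 22 (31 peaks). Chromosome 19 had 2.33 per Mb (42 peaks), chromosome 17 had 1.86 (40 peaks) and chromosome 1, with the most peaks (91), had 1.82. Relative to their share of the length, chromosome 22 had 2.23 times the average (binomial 95% interval 1.52 to 3.13), chromosome 19 had 1.73 (1.25 to 2.31) and chromosome 1 had 1.35 (1.10 to 1.63). Chromosomes 13 (0.422), 11 (0.615), 5 (0.658) and 3 (0.672) were below with intervals that stay under 1.

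The share of peaks with a fold of at least 20 was 32.0% over all 671 peaks. By chromosome it ran from 15.4% on chromosome 16 (4 of 26) to 57.1% on chromosome 13 (4 of 7). Many of these counts are small, and whether the shares differ beyond counting error was not tested. On chromosome 19, 7 of 42 peaks reached a fold of 20 (16.7%), and on chromosome 12, 19 of 39 did (48.7%). Over the 22 autosomes, Spearman's rank correlation between protein-coding genes per Mb of chromosome and peak density was 0.579 for peaks below a fold of 20 and 0.0909 for those of at least 20, given as a description of chromosomes that share the same libraries. Chromosome 22 had the highest density of both kinds, with 2.14 low-fold and 0.874 high-fold peaks per Mb. The latter value rests on 9 peaks. Its interval (0.400 to 1.66) includes the 0.433 per Mb of all shorter-gene interior.

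**Figure D5:**
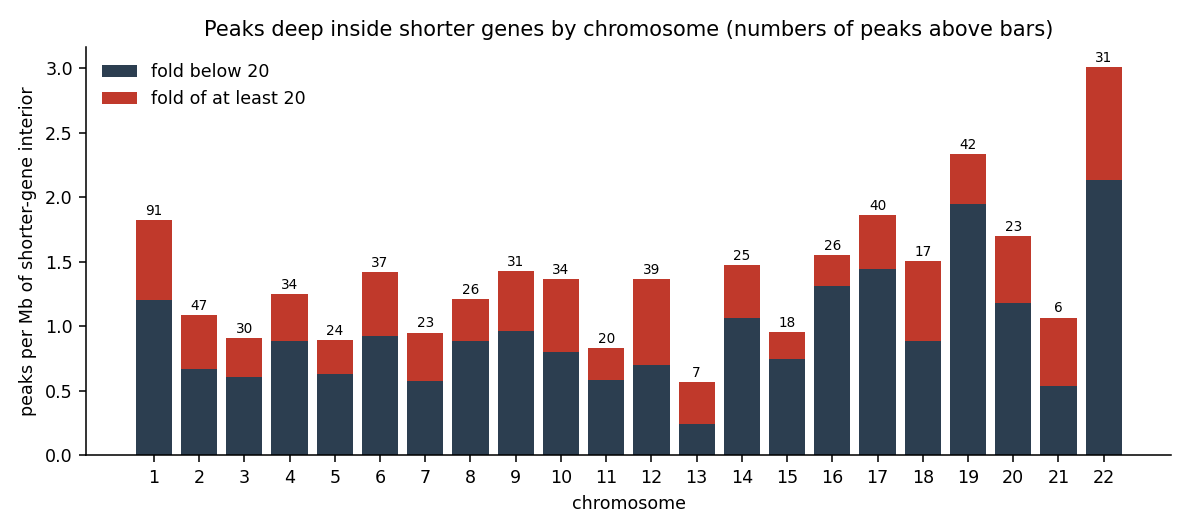
Peaks deep inside shorter genes per Mb of such gene interior (y axis, from 0) on chromosomes 1 to 22 (x axis), as bars stacked from folds below 20 (dark) and of at least 20 (red), with the number of peaks above each bar. Chromosomes 22 and 19 reach 3.01 and 2.33 per Mb, and chromosome 13 has 0.570 per Mb.

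Within 5 Mb of the gene-free intervals, 57 of the 671 peaks were found at 1.77 per Mb, against 1.32 per Mb elsewhere. Their median fold was 7.09, against 9.51, and their median width 918 bp, against 625 bp. High-fold peaks came to 0.372 and 0.437 per Mb there and elsewhere, and low-fold peaks to 1.40 and 0.885 per Mb.

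Peaks at the limits of the rule had folds of either kind. Just inside the limit of 5 kb lay peaks in EXOSC1 (5011.5 bp from a gene end, fold 5.12) and in WDCP and FKBP1B (5043.5 bp, fold 8.39). Just outside it lay peaks in ZNF875 (4993.5 bp, fold 6.47) and ATIC (4968 bp, fold 31.8). At the limit of 200 kb, ADAMTS20 (199 kb, fold 27.4) and RHBDD1 (199 kb, fold 7.63) were inside, and CCDC30 (201 kb, fold 13.4) and GRB10 (203 kb, fold 48.7) outside. The limits are thus cuts through a continuous range of genes and distances.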

How the data were processed

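The values came from 1 peak list that the authors deposited as merged, for 3 libraries, in the 10 columns of the narrowPeak layout. Reads were processed with Bowtie2 and MACS2 on build GRCh38, per the submitters' processing notes. Tool versions, settings, the control and the way of merging are not given in the labels. The authors deposited for each peak a fold enrichment (a linear ratio), −log10 of its p-value, and a score, which equals the whole part of 10 times the −log10 p and was not used further. The deposited positions, widths and summits are in bases. Depth per sample is unknown.

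Peaks were compared with RefSeq genes of GRCh38.p14, 19126 of them protein-coding and autosomal. The length that meets the rule was computed exactly from gene borders, as were its parts by gene length, position and surroundings; the autosomal span runs from the first to the last annotated gene of each chromosome. Strand and start sites came from RefSeq promoter windows, with none on chromosome 8 in the table used. Shares have exact binomial, densities exact Poisson and medians order-statistic 95% intervals (Python 3.11.15, SciPy 1.17.1). The classification was checked on simulated positions of known class.

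The set of peaks, the 18 gene lists, the fold of 20 and the gene-free intervals were chosen with earlier results of these data known. Named are the 10 peaks highest by fold and by −log10 p, the 3 lowest, the 10 genes with the most peaks, up to 4 genes per list and 2 peaks at each side of each limit; others were chosen after their values were seen. A peak that this rule names is not reported here. No test over samples exists for 1 merged list. Alternatives changed the threshold, the position used for a peak, both limits, the merging of neighbours and the regions included. Planned repeat, base composition and KCNQ1OT1 match features were not analysed here, as this needs the genome sequence.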

Additional observations from a re-analysis of the deposited data

How the results depend on the processing

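The 6 summary values of the 671 peaks were recomputed under 10 alternatives, and 49 of the 60 values moved by less than their counting interval (for counts, less than 1.5 times). Keeping peaks with a −log10 p of at least 20 left 405 peaks in 388 genes, with a median fold of 21.7, a median width of 596 bp and 53.1% at a fold of 20 or more. A gene length limit of 100 kb left 389 peaks in 377 genes, with a share ratio of 0.938 and a width of 687 bp. Counting neighbours within 10 kb as 1 site gave a ratio of 0.962. Leaving out 5 Mb around gene-free intervals turned the ratio to 1.22; the cause was not tested. The other limits, the summit or whole peak, and leaving out chromosome 1 moved none of the 6 values that far. The sequence feature alternatives were not run. No paired analysis was possible because the labels give no shared replicate numbers beyond 1 library per group and the list holds no value per library; for the same reason no library could be left out. Depth is unknown, so what it limits cannot be given.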

Other observations

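Among the 356 peaks with a fold below 10, 11 (3.09%) had a −log10 p of at least 50, a list drawn up after the values were seen. MIA2 had a fold of 9.24 with a −log10 p of 150 over 1776 bp. The olfactory receptor genes OR6J1 and OR9Q1 had folds of 6.17 and 3.67 with −log10 p values of 125 and 69.0. GJB7, a connexin gene, had 6.67 and 99.995, and WFDC11 had 7.37 and 98.8. The widest of the 671 peaks, 5509 bp in NBPF26, had a fold of 3.06 and a −log10 p of 68.0; NBPF genes are near-identical copies, so the share of reads from each cannot be told apart. TTC34 differed from these in width, with a fold of 8.61 and a −log10 p of 59.4 over 346 bp. Conversely, none of the 215 peaks with a fold of at least 20 had a −log10 p below 50. Fold and −log10 p come from the same call of a peak and are not independent of each other.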
